A study of Homo sapiens with 16 samples.

Results

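Azacitidine (AZA) is a cytidine analogue that a cell must import and phosphorylate before it acts, and 9 genes of that route were read here: the nucleoside transporters SLC29A1 and SLC29A2, the kinases UCK1, UCK2 and DCK, the ribonucleotide reductase subunits RRM1 and RRM2, cytidine deaminase CDA and the triphosphohydrolase SAMHD1. The genes were listed by name. Each gene was read from the probe set that the array annotation assigns to that gene alone and that had the highest mean over the 16 arrays. Such a probe set exists for 8 of the 9 genes, among 19775 genes with one on the array. Both probe sets that name UCK2 also name a microRNA gene, so UCK2 was not read. The 8 genes passed the filter on dim signals that left 14049 genes for testing.

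Transcripts were hybridised to Affymetrix U133 Plus 2.0 arrays, which cover the genome, from 4 human cell lines of acute myeloid leukaemia (AML). AML-193 came from a monocytic leukaemia, HNT-34 and KG1a from myeloid leukaemias, and HL60 from a promyelocytic one. Each line received 0.5 µM AZA on 3 days or the vehicle DMSO, and then 4 days in medium without drug. There were 2 arrays per line and treatment, in 8 groups, so the values describe cells after the drug holiday and not cells in the drug. In the treated and the vehicle groups alike, cells grew in a light-isotope medium made for mass spectrometry, and the material came from frozen pellets. Nothing in the labels ties the 2 arrays of a group to different cultures, and the p-values then reflect only array-to-array spread, which may be technical. Each line derives from 1 patient's leukaemia, so a difference between lines is one between these 4 lines.

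AZA enters cells mainly through equilibrative nucleoside transporters, of which SLC29A1 (also called ENT1) and SLC29A2 (ENT2) sit at the cell surface. UCK1 and UCK2 add the first phosphate to cytidine, uridine and AZA, and further kinases make the triphosphate that is built into RNA. Ribonucleotide reductase, of the large subunit RRM1 and the small subunit RRM2, converts ribonucleoside diphosphates to the deoxy form, which is how part of the drug reaches DNA and traps DNA methyltransferases. DCK phosphorylates deoxycytidine and the related drug decitabine, not AZA itself. CDA deaminates cytidine and its analogues and so inactivates the drug, and SAMHD1 cleaves deoxynucleoside triphosphates.

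Over the genes tested, replicate arrays had r of 0.995 to 0.998. The correlation of an AZA with a vehicle array was 0.969 to 0.989 within a line, and that between lines ran from 0.796 to 0.91. Every array had a median log2 signal of 6.73, and values below it are close to background, where changes are compressed. RNA integrity was read from the actin and GAPDH control probe sets as the 3′ minus the 5′ log2 signal, which grows as RNA breaks down or its labelling stops short. It averaged 0.198 ± 0.0433 in AML-193 with AZA and 1.27 ± 0.463 with vehicle, and 0.722 ± 0.163 in HL60 with AZA and 0.0443 ± 0.0116 with vehicle (SD, n = 2 each). In these lines the measure moved with treatment, lower with AZA in AML-193 and higher with AZA in HL60, and the groups did not overlap. In HNT-34 it was -0.102 ± 0.0136 with AZA and -0.0033 ± 0.108 with vehicle, and in KG1a 0.0587 ± 0.00135 with AZA and 0.0305 ± 0.129 with vehicle. Of 11 myeloid markers, 8 to 11 lay above the array median in every AZA group and 8 to 11 in every vehicle group. HNT-34 lacked signal above the median for the granule enzymes MPO and AZU1 and for CD14 (5.87, 5.84 and 5.77 with AZA, 5.90, 5.66 and 5.87 with vehicle). KG1a also lacked it for AZU1 and CD14 (6.10 and 5.90 with AZA, 5.66 and 5.90 with vehicle), and its MPO with vehicle averaged 6.75, close to the median. AML-193 lacked it for KIT (5.89 with AZA, 5.12 with vehicle) and, with vehicle, for CD14 (5.87). Among 8 T and NK cell markers, 4 were above the median in HL60 with AZA and 1 with vehicle, and 6 were in HNT-34 with AZA and 4 with vehicle. The median level of these markers was 6.81 in HL60 with AZA and 6.47 with vehicle, and 7.59 in HNT-34 with AZA and 6.75 with vehicle. In KG1a 5 were above the array median in either group, at a median level of 8.55 with AZA and 7.35 with vehicle, and in AML-193 2 were. B cell, epithelial and fibroblast markers above the array median numbered 2 or 3 per list, with equal counts in the AZA and vehicle groups of each line. Erythroid markers above the median numbered 4 of 4 in HNT-34 with AZA and 3 of 4 with vehicle, and the same in AZA and vehicle groups of the other lines. The part of these markers in the results was not tested.

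For each of the 8 genes most of the variance over arrays lay between lines, as it did for the median of all genes tested. In the 4 vehicle groups, the level of 8 of the 8 genes differed between lines (limma moderated F-test, Benjamini-Hochberg adjusted over all genes tested), as did that of 85.1% of all genes. By pairs of lines, the genes that differed with vehicle numbered 8 of 8 between AML-193 and HNT-34 (65.9% of all genes), 7 between AML-193 and KG1a (65%) and 8 between AML-193 and HL60 (66%). They numbered 6 between HNT-34 and KG1a (52.4%), 6 between HNT-34 and HL60 (56.9%) and 5 between KG1a and HL60 (61.8%). The AML-193 vehicle arrays had the highest 3′ minus 5′ signals, and these comparisons were not adjusted for that signal. Differences between lines held 98.9% of the variance over arrays for SAMHD1, 96.3% for RRM2 and 96.2% for SLC29A2, against a median of 76.5% over all genes tested. The share was 93.3% for CDA, and 80.9% for DCK and 78.2% for UCK1, closer to that median. For SLC29A1 it was 67.8%, below the median. RRM1 had the smallest share between lines of the 8 genes (54%) and the largest within lines between AZA and vehicle (37.7%).

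After AZA, the number of the 8 genes that changed was 3 in AML-193, 2 in HNT-34, 1 in KG1a and 6 in HL60, at an adjusted p under 0.05 in limma. Of all genes tested, 40.9% changed in AML-193, 30.2% in HNT-34, 9.92% in KG1a and 41.2% in HL60. With the 3′ minus 5′ signal as a covariate, 0 of the 8 genes and 373 of the 14049 changed in AML-193, and 2 of the 8 and 2149 of the 14049 in HL60. That signal moved with treatment in these lines, so the covariate cannot separate treatment from integrity there. It also widened the standard errors, for SLC29A1 in AML-193 from 0.22 to 0.52, and a call lost with it is not read as no change. A signal per array cannot tell fewer expressing cells from less RNA per cell. Without the covariate the count in HL60 lies above that background and those in the other lines lie near or below it. The AZA and vehicle arrays did not overlap for 5 of the 8 genes in AML-193, 6 in HNT-34, 4 in KG1a and 7 in HL60, where 69.3%, 68.4%, 52.3% and 69.5% of all genes did not overlap. No gene of the 8 changed in every line. The median absolute difference of the 8 genes was 0.11 in AML-193, 0.15 in HNT-34, 0.09 in KG1a and 0.46 in HL60, against 0.21, 0.16, 0.11 and 0.21 over all genes.

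**Figure D1:**
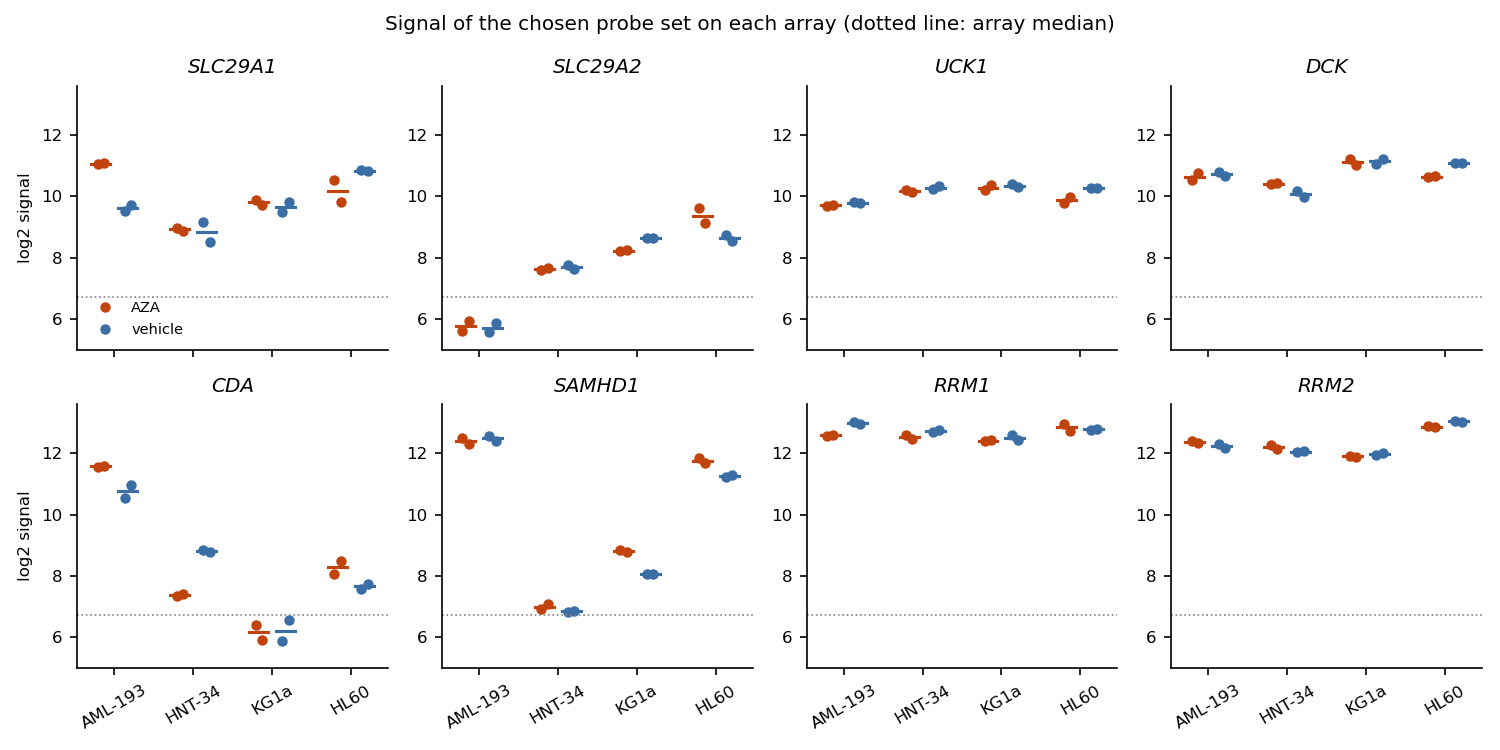
Log2 signal of the 8 genes on each of the 16 arrays, by line (horizontal axis), with AZA arrays in orange left of vehicle arrays in blue, bars at the mean of 2 arrays and a dotted line at the array median of 6.73. CDA lies lower with AZA than with vehicle in HNT-34 and higher in AML-193 and HL60, and SAMHD1 spans the widest range between lines.

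The transporter SLC29A1 rose in AML-193 and fell in HL60. In AML-193 its arrays read 11.05 and 11.08 with AZA, against 9.54 and 9.73 with vehicle. Both AZA arrays stood above both vehicle arrays, and the difference was 1.43 ± 0.22 on the log2 scale, or 2.7-fold (SE, limma adjusted p = 0.000263). In HL60 its arrays read 10.55 and 9.81 with AZA, against 10.85 and 10.84 with vehicle, a difference of -0.67 ± 0.22 (limma adjusted p = 0.0272). The AZA arrays of HL60 differed from each other by more than the higher of them differed from vehicle, and without AZA array 2 the difference was -0.30 (adjusted p = 0.296). In HNT-34 the arrays read 8.97 and 8.89 with AZA and 9.17 and 8.52 with vehicle, and in KG1a 9.89 and 9.72 with AZA and 9.48 and 9.82 with vehicle. The groups of these lines overlapped, with intervals of the difference of -0.39 to 0.56 in HNT-34 and -0.32 to 0.63 in KG1a (95%). The other SLC29A1 probe set gave 1.86 in AML-193 (adjusted p = 0.000396) and -1.68 in HL60 (adjusted p = 0.0007). In both sets and both lines the group with the higher 3′ minus 5′ signal had the lower SLC29A1 values. The part of the 3′ minus 5′ signal in the agreement of the sets was not tested. With the 3′ minus 5′ signal as a covariate, the AML-193 difference was 1.20 (adjusted p = 0.27) and the HL60 difference -0.52 (adjusted p = 0.395).

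With vehicle, SLC29A1 was highest in HL60, at a mean of 10.84, and lowest in HNT-34, at 8.85 ± 0.46 (SD, n = 2). KG1a (9.65 ± 0.24) and AML-193 (9.63 ± 0.14) lay between them and did not differ beyond their spread (limma adjusted p = 0.955). The AML-193 arrays with AZA, which averaged 11.07, read above the vehicle mean of each line in this probe set. In the other SLC29A1 set they averaged 11.05, below HL60 with vehicle at 11.34. There AML-193 with vehicle averaged 9.19 ± 0.11 and KG1a 9.76 ± 0.65.

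SLC29A2 rose in HL60 in the chosen probe set alone. Its HL60 arrays read 9.61 and 9.13 with AZA, against 8.75 and 8.56 with vehicle, a difference of 0.72 ± 0.15 or 1.65-fold (limma adjusted p = 0.00214). The AZA arrays both lay above the vehicle arrays, and with the integrity covariate the difference was 0.89 (adjusted p = 0.038). The other 4 SLC29A2 probe sets gave 0.06, 0.12, 0.01 and -0.08 in HL60, none past the threshold. In KG1a the chosen set read 8.21 and 8.24 with AZA, against 8.63 and 8.66 with vehicle, and the difference of -0.42 did not pass (adjusted p = 0.11) although the arrays did not overlap. In HNT-34 it read 7.61 and 7.68 with AZA and 7.78 and 7.62 with vehicle. In AML-193 the values of 5.60 and 5.95 with AZA and 5.58 and 5.87 with vehicle were below the array median, so a change there could not be read. With vehicle, HL60 and KG1a shared the top in the chosen set (8.65 each, adjusted p = 0.985), followed by HNT-34 (7.70) and AML-193 (5.73), both steps past the threshold. The second brightest set read 8.07 in HL60, 7.79 in KG1a, 7.38 in HNT-34 and 6.46 in AML-193. The third read 7.37 in HL60 and AML-193, 7.18 in HNT-34 and 7.12 in KG1a, so it did not share the order, nor did the dimmer sets.

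The kinase UCK1 fell in HL60. Its HL60 arrays read 9.80 and 9.97 with AZA, against 10.26 and 10.26 with vehicle, a difference of -0.37 ± 0.08 (limma adjusted p = 0.00279). The other UCK1 probe set fell further, with 7.43 and 7.46 with AZA against 8.42 and 8.73 with vehicle, a difference of -1.13 (adjusted p = 2.12e-05). In AML-193 that set read 7.77 and 8.05 with AZA against 7.57 and 7.68 with vehicle, a difference of 0.29 (adjusted p = 0.0903). It was lowest on the HL60 AZA and AML-193 vehicle arrays, those with the highest 3′ minus 5′ signals. The part of that signal in its values was not tested. With the integrity covariate the chosen set gave -0.39 (adjusted p = 0.0743). In the other lines the differences of the chosen set were -0.09 in AML-193, -0.11 in HNT-34 and -0.06 in KG1a, none of which passed. Its mean over the 4 lines was -0.16 ± 0.04 (adjusted p = 0.00748). UCK1 was the only gene of the 8 that did not pass the F-test for an effect that differs between lines (adjusted p = 0.102). Its vehicle levels in KG1a (10.35), HNT-34 (10.29) and HL60 (10.26) did not differ beyond their spread from neighbour to neighbour, and it was lower in AML-193 (9.80, adjusted p = 0.000266).

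DCK changed in opposite directions in HNT-34 and HL60. It read 10.41 and 10.43 with AZA in HNT-34, against 10.17 and 9.99 with vehicle, a difference of 0.34 ± 0.10 (limma adjusted p = 0.0182). In HL60 it read 10.63 and 10.67 with AZA, against 11.08 and 11.09 with vehicle, a difference of -0.44 ± 0.10 (limma adjusted p = 0.00328). The arrays did not overlap in either line, and the effects of the lines differed by 0.78 ± 0.14 (adjusted p = 0.000877). The HNT-34 call was lost without any of 3 of its 4 arrays (0.25 to 0.35) and with signals centred on housekeeping genes (0.23, adjusted p = 0.0881), and the HL60 call with the integrity covariate (-0.46, adjusted p = 0.0811). In AML-193 (10.55 and 10.75 with AZA, 10.81 and 10.66 with vehicle) and KG1a (11.23 and 11.04 with AZA, 11.06 and 11.22 with vehicle) the groups overlapped. With vehicle DCK did not differ beyond its spread between KG1a (11.14) and HL60 (11.09, adjusted p = 0.651), was lower in AML-193 (10.74) and lowest in HNT-34 (10.08). DCK has 1 probe set on the array.

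CDA, the enzyme that inactivates the drug, fell in HNT-34 and rose in AML-193 and HL60. Its HNT-34 arrays read 7.36 and 7.40 with AZA, against 8.86 and 8.79 with vehicle. The difference was -1.44 ± 0.21, a signal 2.72-fold higher in vehicle (limma adjusted p = 0.00017), and it lay between -1.48 and -1.41 without any single array. In AML-193 the arrays read 11.56 and 11.59 with AZA, against 10.55 and 10.96 with vehicle, a difference of 0.82 ± 0.21 (limma adjusted p = 0.00734). In HL60 they read 8.08 and 8.50 with AZA, against 7.59 and 7.74 with vehicle, a difference of 0.62 ± 0.21 (limma adjusted p = 0.0307). The AZA and vehicle arrays did not overlap in these 3 lines.

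The integrity covariate left CDA in HNT-34 at -1.53 (adjusted p = 4.26e-05), moved AML-193 to -0.15 (adjusted p = 0.891) and HL60 to 1.24 (adjusted p = 0.0132). The AML-193 call was lost without vehicle array 1 (0.62, adjusted p = 0.0833), and the HL60 call without any of 3 of its 4 arrays (0.41 to 0.70). In KG1a the arrays read 6.40 and 5.92 with AZA and 5.89 and 6.55 with vehicle, all under the array median, with an interval of -0.51 to 0.39 for the difference. The vehicle level fell into 4 separate steps, 10.75 in AML-193, 8.82 in HNT-34, 7.67 in HL60 and 6.22 in KG1a, and each step passed the test (adjusted p of 0.000315 or less). After AZA the HNT-34 mean of 7.38 was below the HL60 mean of 8.29, the reverse of the order with vehicle. The AML-193 effect exceeded the HNT-34 effect by 2.27 ± 0.30 (limma adjusted p = 0.000102), and the HNT-34 effect minus the HL60 effect was -2.06 ± 0.30 (limma adjusted p = 0.000183). CDA has 1 probe set on the array, so no other set could be compared.

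The 250 bases before the start of CDA and of SAMHD1 are shown because these genes had the widest spans of vehicle level between lines and because AZA lowers methylation at CG pairs, which are in capitals. They are reference sequence from RefSeq (GRCh38.p14), read 5′ to 3′ on the gene's strand, and promoters were matched for 8 of the 9 genes. The CDA window is chr1:20588847-20589096 on the plus strand and the SAMHD1 window chr20:36951709-36951958 on the minus strand.
CDA: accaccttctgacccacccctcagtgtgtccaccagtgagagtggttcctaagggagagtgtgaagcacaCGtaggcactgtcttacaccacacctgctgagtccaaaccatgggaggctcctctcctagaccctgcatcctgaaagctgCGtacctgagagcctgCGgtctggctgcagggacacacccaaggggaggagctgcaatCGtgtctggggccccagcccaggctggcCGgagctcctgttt
SAMHD1: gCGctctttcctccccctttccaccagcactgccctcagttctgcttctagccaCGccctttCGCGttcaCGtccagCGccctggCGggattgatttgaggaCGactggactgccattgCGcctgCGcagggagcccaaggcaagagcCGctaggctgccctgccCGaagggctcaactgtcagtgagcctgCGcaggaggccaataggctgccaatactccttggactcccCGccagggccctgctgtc
The CDA window holds 5 CG pairs and the SAMHD1 window 14. Among 35116 promoter windows of that length the median was 11, 65.7% held at least 5 and 44.8% at least 14. These counts describe the reference letters, and methylation was not measured on these arrays.

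SAMHD1 rose in KG1a and HL60. Its KG1a arrays read 8.86 and 8.79 with AZA, against 8.07 and 8.05 with vehicle, a difference of 0.76 ± 0.09 or 1.7-fold (limma adjusted p = 8.74e-05). It was the only gene of the 8 that passed in KG1a, and the difference lay between 0.73 and 0.80 without any single array and was 0.76 with the integrity covariate. In HL60 the arrays read 11.83 and 11.67 with AZA, against 11.23 and 11.28 with vehicle, a difference of 0.49 ± 0.09 (limma adjusted p = 0.000729). With the covariate that difference was 0.29 (adjusted p = 0.147). In HNT-34 the arrays read 6.93 and 7.08 with AZA, against 6.84 and 6.87 with vehicle, close to the array median, and the interval of the difference ran from -0.04 to 0.34. In AML-193 they read 12.49 and 12.31 with AZA and 12.57 and 12.41 with vehicle and overlapped. Over the 4 lines the mean was 0.33 ± 0.04 (adjusted p = 6.85e-05), which with UCK1 and RRM1 made 3 of the 8 genes called on the mean, where 39.8% of all genes were called, 23.3% as higher and 16.5% as lower.

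SAMHD1 has 6 probe sets, and they gave different results in AML-193 and HL60. The 2 dimmest sets averaged 4.98 and 4.54 over the 16 arrays and reached the array median on 1 and 0 of them, so their values are near background and their differences are not read. In KG1a the 3 brightest sets rose by 0.76, 0.77 and 0.99, and the fourth gave 0.33 and did not pass. The KG1a vehicle arrays of the third set, at 6.33 and 5.60, were under the array median, so its 0.99 is not an exact difference. In HL60 the 4 brightest sets gave 0.49, 0.35, 0.78 and -0.35 from brightest to dimmest, of which the second did not pass. In AML-193 they gave -0.09, 0.07, 0.46 and 1.09, the third and the fourth past the threshold. In HNT-34 no set passed, and the third brightest read 4.13 and 4.11 with AZA and 4.08 and 4.09 with vehicle, far under the array median. In the chosen set the vehicle level was the most line-dependent of the 8 genes. It was 12.49 in AML-193, 11.26 in HL60, 8.06 in KG1a and 6.85 in HNT-34, each step past the test. The dimmest of the 4 brightest sets reversed the top step, with vehicle means of 8.66 ± 0.03 in AML-193 and 8.97 ± 0.27 in HL60 (SD). The other sets among these kept it, at 11.45 and 10.87 in AML-193 against 10.31 and 10.18 in HL60. The order of AML-193 and HL60 thus depends on the probe set. The part of the 3′ minus 5′ signal in that order was not tested.

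SAMHD1 is known as an interferon-inducible gene in monocytic cells, and a list of other interferon-stimulated genes was read beside it. Of 27 tested, 7 rose and 1 fell in KG1a, 9 rose and 3 fell in HL60, 14 rose and 2 fell in HNT-34, and 0 rose and 10 fell in AML-193. Of all genes, 6.56% rose and 3.36% fell in KG1a, 25.2% and 16% in HL60, 15.4% and 14.8% in HNT-34, and 20.7% and 20.2% in AML-193. ISG15, a ubiquitin-like protein, rose by 1.06 in KG1a, 1.45 in HL60 and 1.63 in HNT-34. In AML-193 its difference was -0.28 (limma adjusted p = 0.0118), and -0.06 with the integrity covariate (adjusted p = 0.889). XAF1 rose by 1.96 in HL60 and 1.27 in HNT-34 and did not pass in KG1a (0.08). Its AML-193 difference was -1.3 (limma adjusted p = 2.77e-05), and -0.68 with the covariate (adjusted p = 0.242). In AML-193, IFI44L fell by 1.16 and TRIM22 by 0.63, with differences of -1.32 and -0.76 with the integrity covariate. With the covariate the list count was 0 up and 2 down in AML-193, against 6 up and 1 down in HL60. TRIM22 also fell in KG1a (-0.39, limma adjusted p = 0.00556) and in HL60 (-0.49, limma adjusted p = 0.000281). The list's median difference was -0.16 in AML-193, 0.32 in HNT-34, 0.19 in KG1a and 0.14 in HL60, where the median over all genes tested was 0.024, 0.007, 0.015 and 0.05.

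The reductase subunit RRM1 fell in AML-193 in its brighter probe set. Its arrays read 12.57 and 12.60 with AZA, against 13.01 and 12.96 with vehicle, a difference of -0.40 ± 0.08 (limma adjusted p = 0.00229). The differences of -0.20 in HNT-34, -0.10 in KG1a and 0.08 in HL60 did not pass, and the mean over lines was -0.16 ± 0.04 (adjusted p = 0.00965). That of HNT-34 passed under some alternatives of processing, given below. The other RRM1 probe set went the other way in AML-193, with 10.53 and 10.73 with AZA against 8.86 and 9.48 with vehicle, a difference of 1.46 (adjusted p = 0.000246). In HL60 that set read 9.67 and 10.36 with AZA against 11.82 and 11.88 with vehicle, a difference of -1.83 (adjusted p = 3.58e-05).

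The values of that other set moved with the integrity measure. It read 8.86 to 10.36 on the 4 arrays with a 3′ minus 5′ signal of 0.607 to 1.59, which are the HL60 AZA and AML-193 vehicle arrays, and 10.53 to 12.11 on the other 12, whose signal was -0.111 to 0.229. The chosen set read 12.74 to 13.01 on those 4 arrays and 12.40 to 12.80 on the other 12. With the covariate the AML-193 difference of the chosen set was -0.17 (adjusted p = 0.682).

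**Figure D2:**
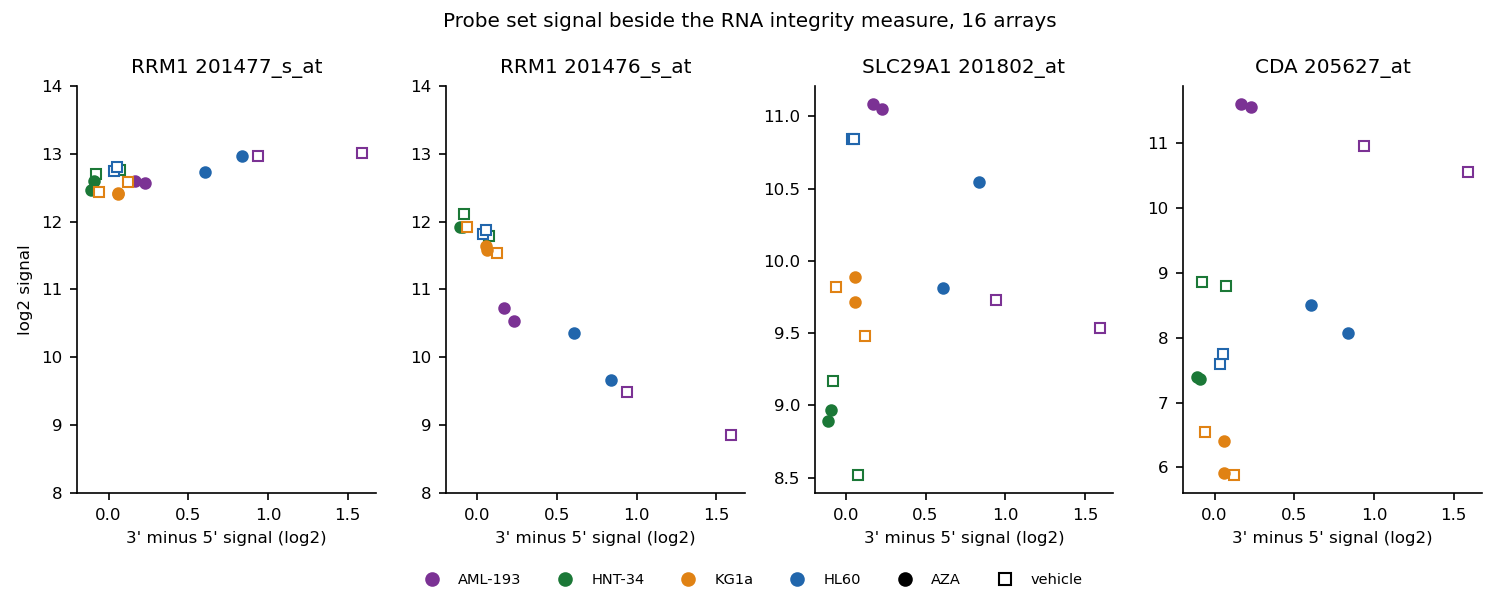
Log2 signal of 4 probe sets (vertical axes, each with its own range except the RRM1 pair) against the 3′ minus 5′ signal of the same array (horizontal axis, log2), with filled circles for AZA, open squares for vehicle and colours for lines. The dimmer RRM1 set is lowest, at 8.86, on the array with the highest 3′ minus 5′ signal, while the brighter set stays between 12.40 and 13.01.

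RRM2 passed in no line in its chosen probe set, with differences of 0.12 in AML-193, 0.14 in HNT-34, -0.09 in KG1a and -0.16 in HL60. The AZA and vehicle arrays did not overlap in any of the 4 lines, but the distances were small, as in HL60 with 12.88 and 12.86 with AZA against 13.05 and 13.03 with vehicle (adjusted p = 0.0821). The HL60 difference of the chosen set passed under some alternatives of processing, given below. The other set, of similar brightness, gave differences of the same signs that were larger and passed in each line, at 0.62 (adjusted p = 5.41e-05), 0.44 (0.000756), -0.29 (0.0287) and -0.58 (7.69e-05), in the same order of lines. The part of the 3′ minus 5′ signal in the values of that other set was not tested. With vehicle RRM2 was highest in HL60 (13.04), followed by AML-193 (12.24) and by HNT-34 (12.05) and KG1a (11.98), which did not differ beyond their spread (adjusted p = 0.457). RRM1 with vehicle, in its chosen set, ran from 12.98 in AML-193 over 12.77 in HL60 and 12.73 in HNT-34, which did not differ beyond their spread (adjusted p = 0.708), to 12.51 in KG1a. In the other RRM1 set AML-193 was lowest with vehicle, at 9.17, against 11.95 in HNT-34, 11.85 in HL60 and 11.73 in KG1a. The place of AML-193 in the RRM1 order is therefore not read.

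Because RRM2 is made mostly in S phase, 29 other genes of S phase were read beside the subunits. In AML-193 6 rose and 12 fell, in HNT-34 3 rose and 15 fell, in KG1a 0 rose and 1 fell, and in HL60 5 rose and 11 fell. The shares of all genes that fell were 20.2% in AML-193, 14.8% in HNT-34, 3.36% in KG1a and 16% in HL60. Those that rose were 20.7%, 15.4%, 6.56% and 25.2% in the same order of lines. In HNT-34 the largest change of the list was in E2F8, which rose by 0.92. MCM5 and MCM3, parts of the replicative helicase, fell there by 0.73 and 0.69. Both RRM2 sets in HNT-34 had positive differences. In HL60 the primase subunit PRIM1 fell by 1.51, and in KG1a CDC45 fell by 0.22. With the integrity covariate no gene of the list was called in AML-193 and 4 fell in HL60. The list's median difference was -0.18 in AML-193, -0.27 in HNT-34, -0.14 in KG1a and -0.11 in HL60.

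The balance of kinases against CDA was read as the difference of log2 signals on the same array. It has no absolute meaning and can only be compared between arrays. UCK2 was not read and DCK does not phosphorylate AZA, so only UCK1 stands here for the first phosphate on the drug. DCK minus CDA was 3.05 and 3.03 in HNT-34 with AZA, against 1.31 and 1.20 with vehicle, higher by 1.78. In HL60 it was 2.55 and 2.18 with AZA, against 3.49 and 3.35 with vehicle, a difference of -1.06. In AML-193 it was -1.01 and -0.84 with AZA, against 0.27 and -0.29 with vehicle, a difference of -0.91. With the integrity covariate the AZA difference in AML-193 was -0.15 ± 0.39 for CDA and -0.05 ± 0.23 for DCK (SE). In HL60 it was 1.24 ± 0.28 for CDA and -0.46 ± 0.16 for DCK. Because integrity moved with treatment in these lines, the covariate cannot decide whether the balance changed there. In KG1a the arrays overlapped, with a difference of 0.05. UCK1 minus CDA had differences of the same signs in the 3 lines, 1.33 in HNT-34, -0.99 in HL60 and -0.92 in AML-193, and shares the CDA values. In HNT-34 the AZA difference was -1.44 for CDA, against 0.34 for DCK and -0.11 for UCK1, so most of the shift there was in CDA.

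The effect of AZA differed between the 4 lines for 7 of the 8 genes by the moderated F-test, where 57% of all genes did. With the integrity covariate 4 of the 8 passed, and of the 7, SLC29A1 (limma adjusted p = 0.361), RRM1 (0.907) and RRM2 (0.0897) no longer did. The 57% belongs to the fit without the covariate, and the share of all genes with the covariate was not counted. Without it, by pairs, 3 genes differed in effect between AML-193 and HNT-34 (31.5% of all genes), 3 between AML-193 and KG1a (24.4%), 5 between AML-193 and HL60 (47.3%), 2 between HNT-34 and KG1a (15.2%), 4 between HNT-34 and HL60 (35.8%) and 2 between KG1a and HL60 (27%). CDA had the widest span, 2.27 between AML-193 and HNT-34, followed by SLC29A1, 2.10 between AML-193 and HL60. SLC29A2 spanned 1.14 between HL60 and KG1a, SAMHD1 0.85 between KG1a and AML-193 and DCK 0.78 between HNT-34 and HL60. For SAMHD1 the KG1a effect exceeded that of HNT-34 by 0.61 (0.34 to 0.88, adjusted p = 0.00489) and that of AML-193 by 0.85 (adjusted p = 0.000497), and differed from that of HL60 by 0.27 (0.00 to 0.54, adjusted p = 0.129). For SLC29A1 the AML-193 effect exceeded that of each other line (adjusted p of 0.0102 or less), and the HL60 effect was not separated from that of KG1a (adjusted p = 0.0679) or HNT-34 (adjusted p = 0.0779). RRM1 and RRM2 were near the threshold, at adjusted p of 0.0229 and 0.0392, and lost the call without any of 4 and 13 of the 16 arrays.

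**Figure D3:**
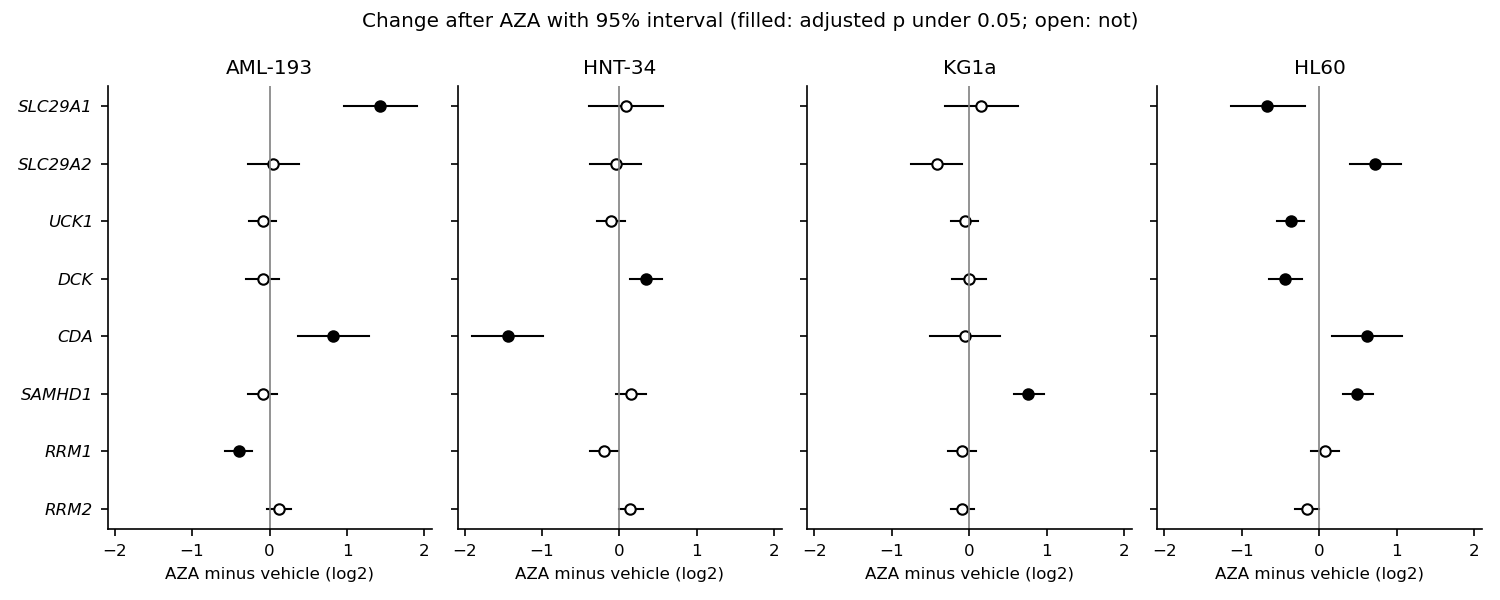
AZA minus vehicle on the log2 scale (horizontal axis) for the 8 genes in each line, with 95% intervals from limma, filled where the adjusted p was under 0.05. CDA lies at -1.44 in HNT-34 and 0.82 in AML-193, KG1a has SAMHD1 alone past the threshold, and HL60 has 6 genes past it.

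**Figure D4:**
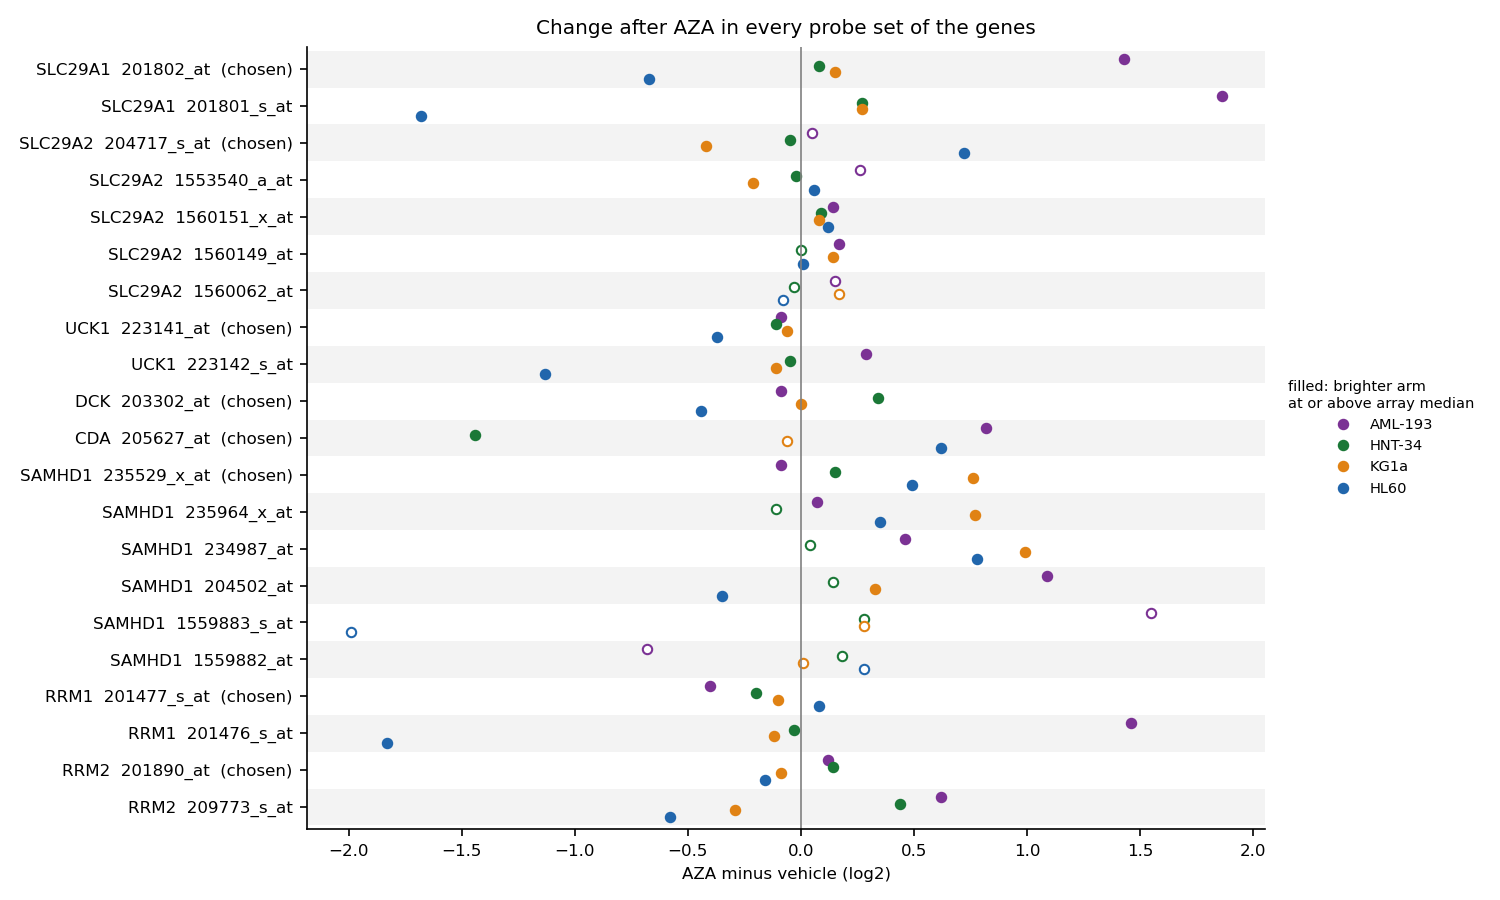
AZA minus vehicle on the log2 scale (horizontal axis) for every single-gene probe set of the 8 genes (rows), coloured by line and filled where the brighter group reached the array median. The 2 RRM1 sets lie on opposite sides of 0 in AML-193 and HL60, and those of SLC29A1 and RRM2 lie on the same side in each line.

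Other genes of nucleoside handling were counted by lists, to be read against the shares of all genes that rose and fell: 20.7% and 20.2% in AML-193, 15.4% and 14.8% in HNT-34, 6.56% and 3.36% in KG1a, and 25.2% and 16% in HL60. Of 3 other nucleoside transporters tested, SLC29A3, a lysosomal transporter, rose by 0.25 in AML-193 and SLC29A4 by 0.40 in HL60, and none passed in HNT-34 or KG1a. With the integrity covariate SLC29A3 was at -0.12 in AML-193 (adjusted p = 0.755) and SLC29A4 at 0.33 in HL60 (adjusted p = 0.173). Of 6 efflux pumps, 3 rose in HNT-34, 1 rose in KG1a, 1 rose in HL60 and 1 fell in AML-193, the calls in HL60 and AML-193 being lost with the covariate. ABCC4, which exports nucleotides and nucleotide analogues, read 10.77 and 10.80 in HNT-34 with AZA, against 8.63 and 8.51 with vehicle, a difference of 2.22 ± 0.10 (limma adjusted p = 3.16e-09). In KG1a it read 10.02 and 9.87 with AZA, against 9.09 and 9.20 with vehicle, a difference of 0.80 ± 0.10 (limma adjusted p = 0.000153). These were the largest changes among the transport genes of the lists in those lines.

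Of 12 other nucleoside and nucleotide kinases, 2 rose and 4 fell in AML-193, 2 rose and 3 fell in HNT-34, 1 rose in KG1a, and 2 rose and 1 fell in HL60. With the integrity covariate the counts were 0 up and 0 down in AML-193 and 1 up and 0 down in HL60. CMPK2, a mitochondrial nucleotide kinase that is also interferon-inducible, rose by 1.62 in HNT-34, and ADK, adenosine kinase, fell there by 0.81. ADK fell by 0.44 in HL60 and rose by 0.35 in AML-193. CMPK1, which adds the second phosphate to cytidine and uridine nucleotides, fell by 0.33 in AML-193. With the covariate ADK was at -0.25 in HL60 (adjusted p = 0.126) and 0.05 in AML-193 (adjusted p = 0.889), and CMPK1 at -0.03 in AML-193 (adjusted p = 0.951).

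Of 15 genes of nucleotidases, phosphorylases and pyrimidine breakdown, 4 rose and 3 fell in AML-193, 0 rose and 3 fell in HNT-34, 0 changed in KG1a, and 4 rose and 4 fell in HL60. In HNT-34, where CDA fell, DPYD, the first enzyme of pyrimidine base breakdown, fell by 0.79 and the nucleotidases NT5C3A and NT5C2 fell by 0.53 and 0.52. In AML-193 uridine phosphorylase UPP1 rose by 0.72 and DPYD by 0.67, with 0.52 and 0.09 under the integrity covariate, neither past the threshold. In HL60 NT5C3B rose by 0.67 and NT5C3A fell by 0.43, with 0.98 and -0.29 under the covariate (adjusted p = 7.08e-05 and 0.155). With the covariate the list had 0 up and 0 down in AML-193 and 2 up and 0 down in HL60.

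De novo pyrimidine synthesis makes the natural nucleotides that compete with the drug. Of its 5 genes, 3 fell and 0 rose in HNT-34: CAD, which starts the pathway, by 0.69, CTPS2, a CTP synthase, by 0.59 and DHODH by 0.38. In AML-193 2 rose and 1 fell, with CTPS1 up by 1.15, and in HL60 1 fell, CTPS1 by 0.92. CTPS1 was at 0.92 in AML-193 (adjusted p = 0.133) and -0.78 in HL60 (adjusted p = 0.0287) with the integrity covariate. None of the 5 passed in KG1a. The list's median difference was -0.04 in AML-193, -0.38 in HNT-34, -0.19 in KG1a and 0.00 in HL60.

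Of 5 other genes of deoxynucleotide supply, 2 rose in AML-193, 1 fell in HNT-34 and 1 in HL60, where thymidylate synthase TYMS fell by 0.37 (-0.15 with the covariate, adjusted p = 0.399). With the covariate none of the 5 was called in AML-193 or HL60. Of 9 genes of purine salvage, 1 rose and 1 fell in AML-193, 3 rose and 2 fell in HNT-34, 0 changed in KG1a, and 3 rose and 3 fell in HL60, with 0 called in AML-193 and 2 up and 0 down in HL60 under the covariate. AMPD3, an AMP deaminase, rose by 1.36 in HL60 and fell by 0.65 in HNT-34. Of the 4 genes of DNA methyltransferases and UHRF1, the targets of the incorporated drug and a cofactor, 2 fell in AML-193, 2 fell in HNT-34 and 2 rose in HL60, and with the integrity covariate none was called in AML-193 or HL60. DNMT1, the maintenance methyltransferase, read 11.05 and 11.10 in HNT-34 with AZA, against 11.50 and 11.57 with vehicle, a difference of -0.46 ± 0.10 (limma adjusted p = 0.00246), and passed in no other line. Of 21 housekeeping genes, 7 rose and 4 fell in AML-193, 5 rose and 0 fell in HNT-34, 1 rose in KG1a, and 7 rose and 4 fell in HL60, with HPRT1 counted both here and under purine salvage. With the covariate the housekeeping counts were 0 and 0 in AML-193 and 2 up and 1 down in HL60.

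Over the 16 arrays, the genes whose signal followed each of the 8 most closely by Pearson's r were given as a description, since the arrays fall into 4 lines and the correlation mostly repeats the order of the lines. SAMHD1 was followed most closely by LINC00926 (r = 0.993) and ZHX2 (0.992), RRM2 by THG1L (0.977) and RASAL1 (0.973), and SLC29A2 by DANCR (0.976) and SWSAP1 (0.973). CDA was nearest to SLC25A13 (0.972) and STX3 (0.964), UCK1 to WDR12 (0.973) and ZNF566 (0.962), and SLC29A1 to DPM1 (0.951) and CAB39 (0.941). DCK was nearest to IL2RG (0.949) and TAGAP (0.948), and RRM1 to MRPS31 (0.951) and ZNF767P (0.937).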

How the data were processed

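The authors deposited a log2 signal for each probe set of 16 Affymetrix U133 Plus 2.0 arrays, used here without further normalization. The submitters' processing notes name affy and RMA, without a version. The table held 54675 probe sets, 62 of them array controls. By the platform annotation 41097 had 1 gene symbol, 1801 several and 11777 none, and a RefSeq gene table (GRCh38.p14) changed 0 symbols. For each of 19775 genes the single-symbol probe set with the highest mean was taken, and the 14049 genes at or above the array median on at least 2 arrays were tested.

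A single limma model (version 3.58.1, R 4.3.3) held the mean of each of the 8 groups, with 8 residual and 4.8 prior degrees of freedom, Benjamini-Hochberg adjustment over all genes of a contrast and a threshold of 0.05. The fit was tested on simulated data. Having 2 arrays per group limits the precision. Levels of different probe sets have no common scale.

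The rule for named genes was the 9 genes with their other probe sets, up to 4 called genes per list and line with the largest change, DNMT1, and the 2 genes closest to each by correlation. The genes and lists were chosen with earlier results of these data known. The alternatives were another probe set or their mean, the 3′ minus 5′ signal as covariate, centring on housekeeping genes, renewed quantile normalization, no filter, a trend with robust moderation, each line alone, and each array left out.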

Additional observations from a re-analysis of the deposited data

Results flagged for a closer look

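For 7 of the 8 genes the effect of AZA differed between the 4 lines in limma's moderated F-test, where 57% of all genes did. The adjusted p was 0.000144 for CDA, which was lower with AZA in HNT-34 (-1.44) and higher in AML-193 (0.82, but -0.15 with the 3′ minus 5′ signal as a covariate, adjusted p = 0.891). It was 0.000441 for SAMHD1, 0.000688 for SLC29A1, 0.003 for DCK and 0.00389 for SLC29A2. It was 0.0229 for RRM1 and 0.0392 for RRM2, whose effects spanned 0.48 and 0.31 on the log2 scale. With that covariate in the F-test, CDA (adjusted p = 0.000113), SAMHD1 (0.00643), DCK (0.0129) and SLC29A2 (0.016) still passed, and SLC29A1 (0.361), RRM2 (0.0897) and RRM1 (0.907) did not.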

How the results depend on the processing

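With the 3′ minus 5′ signal as covariate, 0 of the 8 genes and 373 of all genes were called in AML-193, 2 and 2149 in HL60, and 4 genes differed in effect between lines. For those 4 the matching share of all genes was not counted. With the mean of a gene's probe sets 5 genes were called in AML-193. In KG1a 2 genes were called with the other, second brightest probe sets and with the line fitted alone, which called 844 of all genes. Leaving out each array gave 2 to 3 of the 8 genes in AML-193, 1 to 3 in HNT-34, 1 to 2 in KG1a, 4 to 6 in HL60, 3 to 4 on the mean, 5 to 7 for differing effects and 8 to 8 for vehicle levels. Over all genes it gave 4030 to 6099, 2892 to 4562, 688 to 1608 and 4298 to 6042 in the same order of lines, with the lowest KG1a counts of 688 and 698 without either KG1a AZA array. The HNT-34 count was 1 without vehicle array 2, AZA array 1 or AZA array 2, where DCK was lost, and the KG1a count 2 without either HL60 AZA array, where SLC29A2 passed. Counting only signs that turned where the value passed the threshold before or after, they did so for CDA in AML-193 with the covariate (-0.15), SLC29A2 in HL60 in its dimmest probe set (-0.08), and RRM1 with the other probe set (1.46 in AML-193, -1.83 in HL60) and with the mean of sets (0.53 and -0.88). They also turned for SAMHD1 with other sets in AML-193 (0.46 and 1.09) and HL60 (-0.35), with a set near background (1.55 and -1.99), and with means of sets that include 2 near background (0.40 and -0.07), and these last 4 values are not read as changes. Other signs also turned where no value passed. Causes were not tested. CDA in HL60 was lost on renewed quantile normalization (0.55, adjusted p = 0.0984), and SLC29A1 in HL60 with the line fitted alone (-0.67, adjusted p = 0.0776). Some calls were gained in limma. RRM2 in HL60 passed on renewed quantile normalization (-0.21, adjusted p = 0.0353), housekeeping centring (-0.21, 0.0485) and the robust trend (-0.16, 0.0404). RRM1 in HNT-34 passed on housekeeping centring (-0.31, adjusted p = 0.0166) and the robust trend (-0.20, 0.0429). No filter and the robust trend turned no sign of a call and ended no call within a line, but without the filter, and likewise with housekeeping centring, 6 genes differed in effect between lines, against 7. Centring on housekeeping genes moved the median of all genes to -0.079 in AML-193, -0.103 in HNT-34, -0.021 in KG1a and 0.007 in HL60. CDA in HNT-34 and SAMHD1 in KG1a kept their calls under each alternative that used the same probe set. No paired analysis was possible because the labels carry no replicate numbers.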

Other observations

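The 2 probe sets that the annotation assigns to both UCK2 and the microRNA gene MIR3658 were not read as UCK2, and their values are given without a gene. The brighter set read 10.98 and 11.01 in AML-193 with AZA, against 10.17 and 10.46 with vehicle. In HNT-34 it averaged 11.03 ± 0.04 with AZA and 11.25 ± 0.04 with vehicle (SD, n = 2 each), and in HL60 it read 9.53 and 10.17 with AZA, against 10.34 and 10.53 with vehicle. Its AZA and vehicle arrays did not overlap in any of the 4 lines, with differences of 0.68 in AML-193, -0.22 in HNT-34, -0.15 in KG1a and -0.58 in HL60. The other gave -0.11 in AML-193, -0.81 in HNT-34, -0.02 in KG1a and 0.44 in HL60, so the signs of the pair were opposite in AML-193 and HL60, the lines in which the 3′ minus 5′ signal differed between AZA and vehicle arrays. In HNT-34 it read 9.48 and 9.31 with AZA, against 10.03 and 10.38 with vehicle. These values were not tested.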
